A study of Mus musculus with 2 samples.

Results

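The 10 genes described here belong to the chondrogenic programme and were followed in single cells of injured mouse tendon. They are the transcription factors Sox9, Sox5 and Sox6 and the genes Acan, Hapln1, Matn2, Matn3, Matn4, Snorc and Cytl1, whose products are found in or released into cartilage matrix. They were chosen by gene symbol and not by a ranking of their values, though earlier results of these data were known. They make up 10 of the 32285 features counted. One library came from TrkA F592A mice and 1 from TrkA WT mice, each from 3 pooled mice of 12 weeks, and the injury site was dissected 14 days after the operation. TrkA is the receptor tyrosine kinase for nerve growth factor, and F592A is a point mutation that opens its kinase pocket to a bulky inhibitor. The title of the F592A sample reads INMPP1. The sources used here give neither its dose nor whether WT mice received it, so effects of the mutation and of a compound cannot be told apart.

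In cartilage, Sox9 starts the chondrocyte programme, and Sox5 and Sox6, which lack an activation domain of their own, bind beside it at the genes of cartilage matrix. Aggrecan, encoded by Acan, is the large proteoglycan that holds water in cartilage and in the compressed parts of tendon. The link protein Hapln1 fixes aggrecan to hyaluronan. Matrilins, encoded by the Matn genes, are adaptor proteins that join collagen fibrils to proteoglycans, and Matn3 is known chiefly from cartilage while Matn2 is made in many tissues. Snorc is a small proteoglycan and Cytl1 a secreted protein, both known from chondrocytes. Injured tendon can form ectopic cartilage and bone, which makes these genes of interest there.

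Expression was read as UMIs (unique molecular identifiers, each standing for 1 captured RNA molecule) in 8449 F592A cells and 11254 WT cells. The median cell had 17880 UMIs in F592A and 15873.5 UMIs in WT. Levels are given as CPM, the UMIs of a gene scaled to a common total (counts per 1e6) of UMIs of the same cell population. Cells were assigned to types by lists of 6 markers. The gated types were 4397 F592A and 5987 WT stromal cells, 601 and 594 mural cells, 610 and 536 blood endothelial cells, and 1645 and 2492 macrophages. Smaller types included 89 and 97 lymphatic endothelial cells and 139 and 220 neutrophils, and 818 and 1178 cells were left ungated. All 6 markers of its own list stood at 10 CPM or more in each type except the muscle precursors (4 F592A cells, none in WT). A set of 764 barcodes stood in both libraries, 96 of them among the kept cells. Intervals are at the 95% level and express counting error alone. With 1 library per genotype there is no replicate check, so no difference was tested. "Higher" and "lower" describe the F592A library relative to the WT library.

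The sequence around a transcript start is shown first for Acan, Hapln1, Matn3 and Matn4, the matrix genes that were detected together in the same stromal cells. Each stretch runs from 250 bases before to 50 bases after a RefSeq transcript start on GRCm38.p6. Acan is on chr7:79052976-79053275 (plus strand), Hapln1 on chr13:89540386-89540685 (plus), Matn3 on chr12:8947679-8947978 (plus) and Matn4 on chr2:164405111-164405410 (minus). The transcript start used for Hapln1 lay 840 bases inside the gene as GENCODE annotates it, so its stretch is not in front of that gene model, and the one used for Acan lay 257 bases before the GENCODE start. Capitals mark ACAAT or its reverse complement ATTGT, the core of the sites that Sox proteins bind.
Acan: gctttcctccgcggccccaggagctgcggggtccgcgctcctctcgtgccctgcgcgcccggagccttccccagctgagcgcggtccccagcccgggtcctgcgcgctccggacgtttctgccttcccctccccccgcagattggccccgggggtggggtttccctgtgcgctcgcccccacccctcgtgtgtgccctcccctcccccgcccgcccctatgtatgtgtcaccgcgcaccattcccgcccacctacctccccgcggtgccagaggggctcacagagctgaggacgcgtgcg
Hapln1: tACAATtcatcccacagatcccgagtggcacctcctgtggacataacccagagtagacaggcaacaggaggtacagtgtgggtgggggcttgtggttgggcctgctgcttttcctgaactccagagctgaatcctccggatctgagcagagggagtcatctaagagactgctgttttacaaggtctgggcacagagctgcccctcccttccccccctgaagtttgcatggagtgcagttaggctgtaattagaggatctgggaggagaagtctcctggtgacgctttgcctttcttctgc
Matn3: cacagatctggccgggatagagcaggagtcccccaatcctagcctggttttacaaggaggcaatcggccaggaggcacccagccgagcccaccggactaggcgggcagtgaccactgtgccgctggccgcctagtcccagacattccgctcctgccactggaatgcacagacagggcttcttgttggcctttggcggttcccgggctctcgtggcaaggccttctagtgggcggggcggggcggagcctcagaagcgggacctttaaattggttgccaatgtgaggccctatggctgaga
Matn4: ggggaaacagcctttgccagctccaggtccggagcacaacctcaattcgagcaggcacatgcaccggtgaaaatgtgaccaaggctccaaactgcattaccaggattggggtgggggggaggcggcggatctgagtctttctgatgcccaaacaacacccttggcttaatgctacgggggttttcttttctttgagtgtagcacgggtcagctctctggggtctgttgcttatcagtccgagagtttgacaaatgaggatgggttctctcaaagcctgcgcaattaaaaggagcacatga
Of these 4 stretches, the one of Hapln1 held the motif, once. RefSeq promoters matched 7 of the 10 genes, with 13 promoters in all, of which 5 held the motif on either strand. Besides Hapln1, these were stretches of Sox5 and Sox6 far from the GENCODE start. The Sox5 transcript start lay 834871 bases from it, and the Sox6 ones 43710, 214086 and 237187 bases. No stretch whose transcript start lay within 342 bases of the GENCODE start held the motif. Among all 32851 promoters of the same length, 31.02% held it. A match of 5 letters is a description of the sequence and not a bound site, and Sox9 is known to act on several of these genes through distant enhancers.

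Both libraries placed most UMIs of the matrix genes and of Sox9 in stromal cells. Stromal cells held 92.0% of all Sox9 UMIs in F592A and 91.4% in WT. For Acan the shares were 90.7% and 90.0%, for Hapln1 85.4% and 84.9%, for Matn3 89.2% and 89.8%, for Matn4 93.3% and 89.0%, and for Matn2 94.2% and 92.8%. Sox5 was less concentrated there, with 70.1% and 78.6%, and mural cells held another 24.0% and 14.4% of its UMIs. Cytl1 was the exception, with 18.3% and 17.4% of its UMIs in stromal cells and 76.7% and 78.3% in blood endothelial cells.

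**Figure D1:**
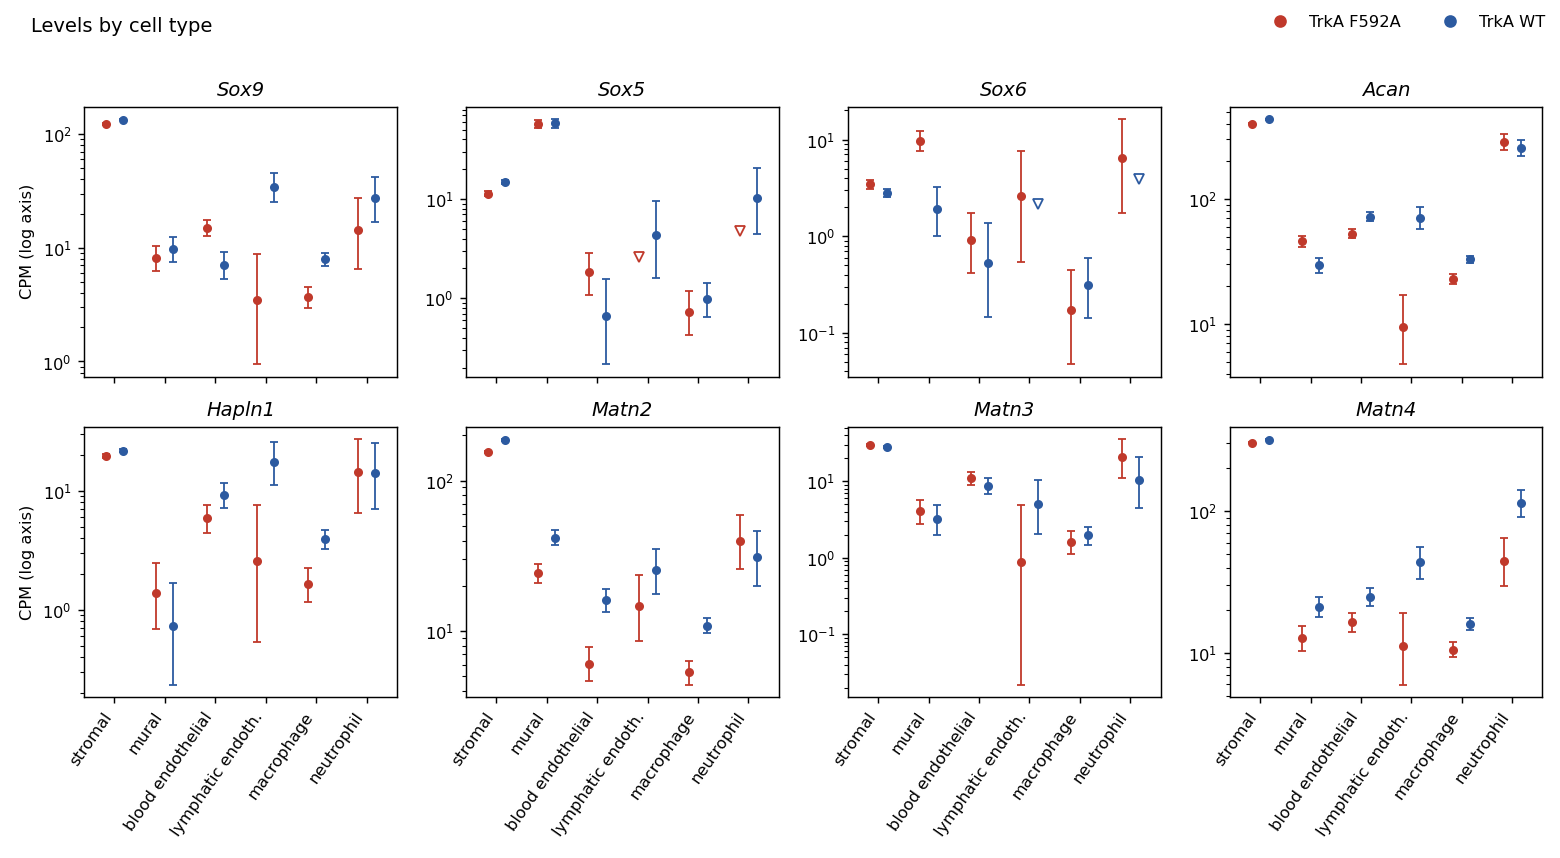
CPM (log axis) of 8 genes in 6 cell types, with F592A in red to the left of WT in blue; bars are exact Poisson 95% intervals, and open triangles mark populations with no UMI, drawn at 3 counts. Among these 6 types, Sox9, Acan, Hapln1, Matn2, Matn3 and Matn4 were highest in stromal cells in both libraries, and Sox5 was highest in mural cells.

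In stromal cells the levels of these genes lay close together in the 2 libraries. None of the 8 genes with at least 100 UMIs was 1.5-fold apart in either direction, while 3.54% of the 13804 genes measured in stromal cells were at least 1.5-fold higher in F592A and 4.71% at least 1.5-fold lower (8.24% in all). The median log2 ratio of the 8 genes was -0.11, beside -0.08 for all measured genes. Sox9, the master regulator, had 123 CPM in F592A (14476 UMIs) and 134 CPM in WT (19716 UMIs), a log2 ratio of -0.12 (interval -0.15 to -0.09). Sox5 had 11.4 and 14.8 CPM, a log2 ratio of -0.38 (interval -0.48 to -0.28), the largest distance from 0 among the 8. Sox6, its close relative, went the other way, with 3.43 CPM in F592A and 2.83 CPM in WT and a log2 ratio of 0.28 (interval 0.08 to 0.48, from 403 and 417 UMIs).

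Of the matrix genes, Acan had 400.3 CPM in F592A and 432 CPM in WT (log2 ratio -0.11), and its linker Hapln1 had 19.7 and 21.9 CPM (log2 ratio -0.15). Matn2 had 155 and 186 CPM, a log2 ratio of -0.26 (interval -0.29 to -0.23). Matn4 had 303 and 318 CPM (log2 ratio -0.07) and Matn3 29.6 and 27.8 CPM (log2 ratio 0.09). The signs of Matn3 and Matn4 did not hold under other scalings: Matn3 was at -0.04 after thinning each cell to 2000 UMIs, and Matn4 at 0.01 with TMM or median-of-ratios factors, which move the median of all genes by 0.08. Snorc and Cytl1 were too sparse for a ratio in stromal cells, with 10 F592A and 9 WT UMIs for Snorc and 11 and 4 UMIs for Cytl1.

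Shares of stromal cells with at least 1 UMI gave a similar picture once each cell was thinned to 2000 UMIs. Acan was found in 30.5% of F592A stromal cells (interval 29.1 to 31.9) and 36.0% of WT stromal cells (interval 34.8 to 37.2), beside 1.61% and 2.35% of macrophages. Macrophages were taken as the background, and how much of it was free RNA, from outside the cell, was not tested. Before thinning, 1 macrophage held 26.2% of their Acan UMIs in F592A and 1 held 10.9% in WT. Unthinned, the stromal shares were 59.9% and 65.1%. Sox9 was found in 16.3% and 17.8% of thinned stromal cells, beside 0.619% and 0.893% of macrophages. The median UMI count of macrophages was 13487 in F592A and 10511.5 in WT, and that of stromal cells 25108 and 22832. Matn2 was found in 24.1% and 28.3%, Matn4 in 25.7% and 28.3%, Matn3 in 3.92% and 3.95% and Hapln1 in 2.48% and 2.64%. Sox5 and Sox6 came to 2.62% and 3.06% and to 0.638% and 0.636%, near the level of 1 UMI. After thinning, Acan, Matn2 and Matn4 were thus detected in a smaller share of F592A cells, with intervals that did not overlap, and the shares of Matn3, Hapln1 and Sox6 were nearly equal. Unthinned, Matn2 was found in 83.5% and 87.7% of stromal cells, and Matn4 in 53.2% and 53.4%. The share of all genes with such a gap was not taken, so these gaps stand without a background. The intervals count cells of 1 library per genotype.

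The genes differed in how evenly stromal cells shared them. Matn2 was spread widely: 50% of its UMIs lay in 16.6% of F592A and 18.2% of WT stromal cells. For Acan these were 7.85% and 10.3% of the cells, and for Sox9 8.62% and 8.64%. Hapln1 was concentrated in few cells, with 50% of its UMIs in 1.30% and 1.72% of stromal cells. No single cell held more than 3.57% of the stromal UMIs of any of the 8 genes.

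Stromal cells were then divided by marker lists. The smallest subset carried the cartilage collagen genes Col2a1 and Col9a1 to Col9a3, with 59 F592A and 117 WT cells. It is named here by these genes and not as chondrocytes, since it also had 1750 CPM in F592A and 1606 CPM in WT of Tnmd, a tendon marker. The others were tenocyte-like cells (1275 and 1482), cells with Rbp4, Cyp26b1 and Wfdc18 (349 and 443), cells of a Prg4 and Tppp3 list (76 and 195), cells of a Pi16 and Dpp4 list (394 and 826) and cells with Gdf10, Hmcn2 and Abca8a (602 and 229). A further 1642 and 2695 stromal cells met no list. Of the 6047 cells placed in a subset, 1479 lay near the limit. The Gdf10 and Pi16 subsets took unequal parts of the libraries, and so did the Prg4/Tppp3 subset (0.90% of F592A cells and 1.73% of WT cells). With the Gdf10 and Pi16 subsets left out, the median log2 ratio of the 8 genes in stromal cells was -0.07. The ratios were then -0.05 for Acan, -0.33 for Sox5 and -0.21 for Matn2. The Prg4/Tppp3 subset was not left out. It held 78 of 1337 F592A and 330 of 2187 WT stromal Sox5 UMIs, and its part in the stromal Sox5 ratio was not tested. With the subsets weighted equally the median was -0.19, and Hapln1 stood at -0.49.

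**Figure D2:**
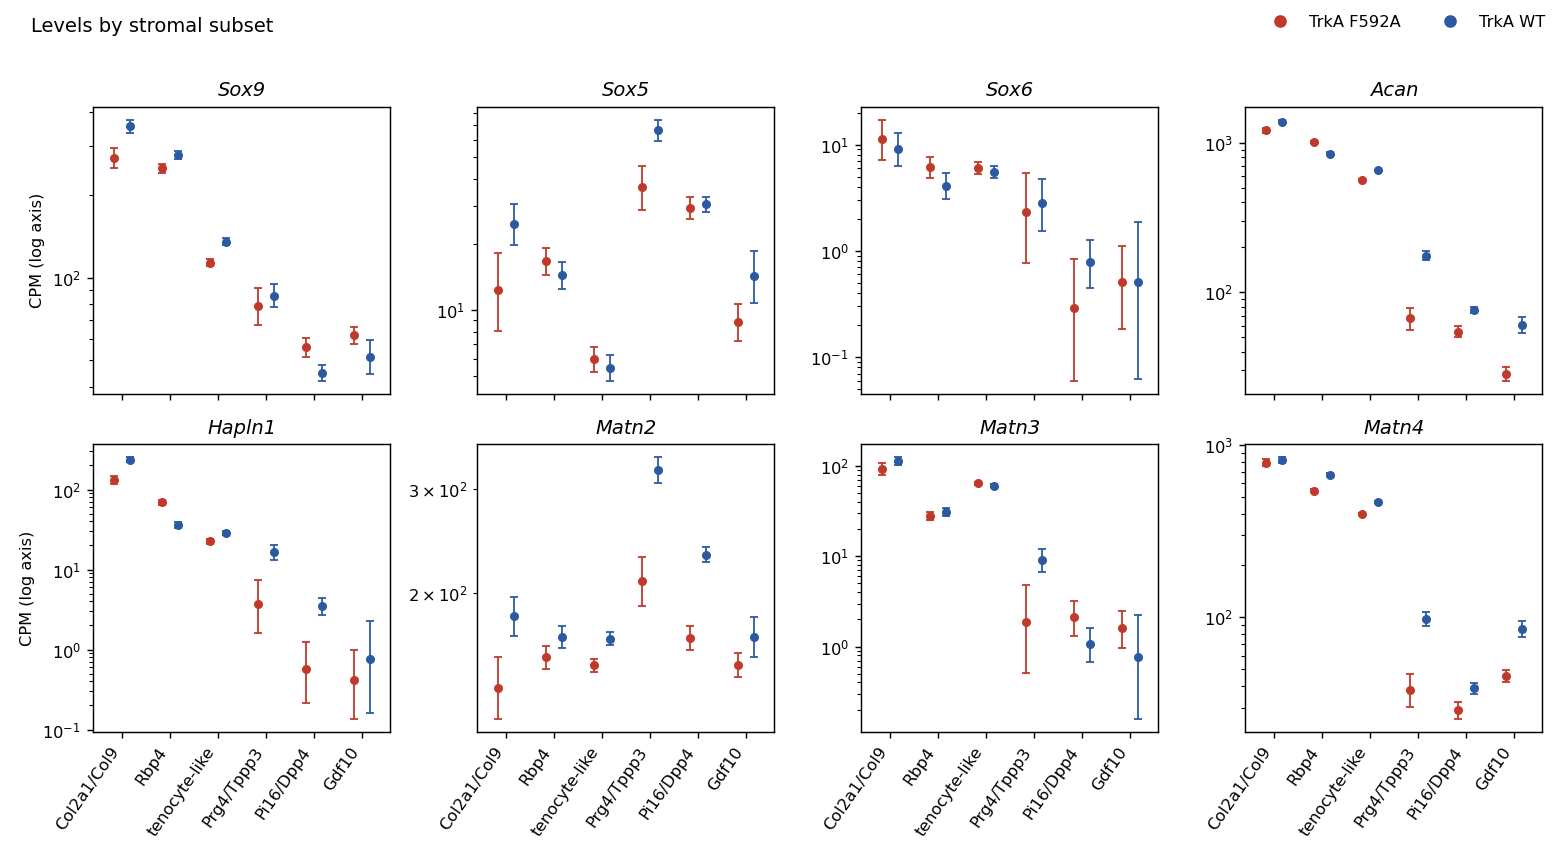
CPM (log axis) of 8 genes in 6 stromal subsets, with F592A in red to the left of WT in blue and exact Poisson 95% intervals. Acan, Hapln1, Matn4, Matn3 and Sox9 had their highest value in the Col2a1/Col9 subset in both libraries, Matn2 and Sox5 in the Prg4/Tppp3 subset.

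Acan, Hapln1, Matn4 and Sox9 kept 1 order over the 3 subsets of highest level, from the Col2a1/Col9 cells through the Rbp4 cells to the tenocyte-like cells. Acan had 1215 CPM in F592A and 1389 CPM in WT in the Col2a1/Col9 cells, 1015 and 848 CPM in the Rbp4 cells and 566 and 655 CPM in tenocyte-like cells. Sox9 had 272 and 354 CPM, 249 and 278 CPM, and 113 and 135 CPM in the same 3 subsets, the F592A intervals of the first and second overlapping (249.9 to 296 and 240.1 to 258). Matn4 had 791 and 817 CPM, 544 and 672 CPM, and 397 and 465 CPM. Matn3 ranked otherwise, with 92.7 and 113 CPM in the Col2a1/Col9 cells, then 64.6 and 60.5 CPM in tenocyte-like cells and 27.9 and 31.2 CPM in the Rbp4 cells. Tenocyte-like cells contributed 70.6% of stromal Matn3 UMIs in F592A and 57.6% in WT.

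Matn2 and Sox5 had another distribution. Matn2 varied least, from 139 to 210 CPM in F592A and from 168 to 323 CPM in WT, with its highest level in the Prg4/Tppp3 cells. Sox5 was also highest there, with 36.5 CPM in F592A and 66.6 CPM in WT, followed by the Pi16/Dpp4 cells with 29.3 and 30.6 CPM. Its lowest level was in tenocyte-like cells, with 228 UMIs in F592A (interval 5.24 to 6.83 CPM) and 213 UMIs in WT (interval 4.75 to 6.25 CPM). Sox6 did not follow Sox5: it had 11.4 and 9.11 CPM in the Col2a1/Col9 cells (23 and 33 UMIs), 6.05 and 5.54 CPM in tenocyte-like cells, and under 1 CPM in the Pi16/Dpp4 and Gdf10 cells.

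**Figure D3:**
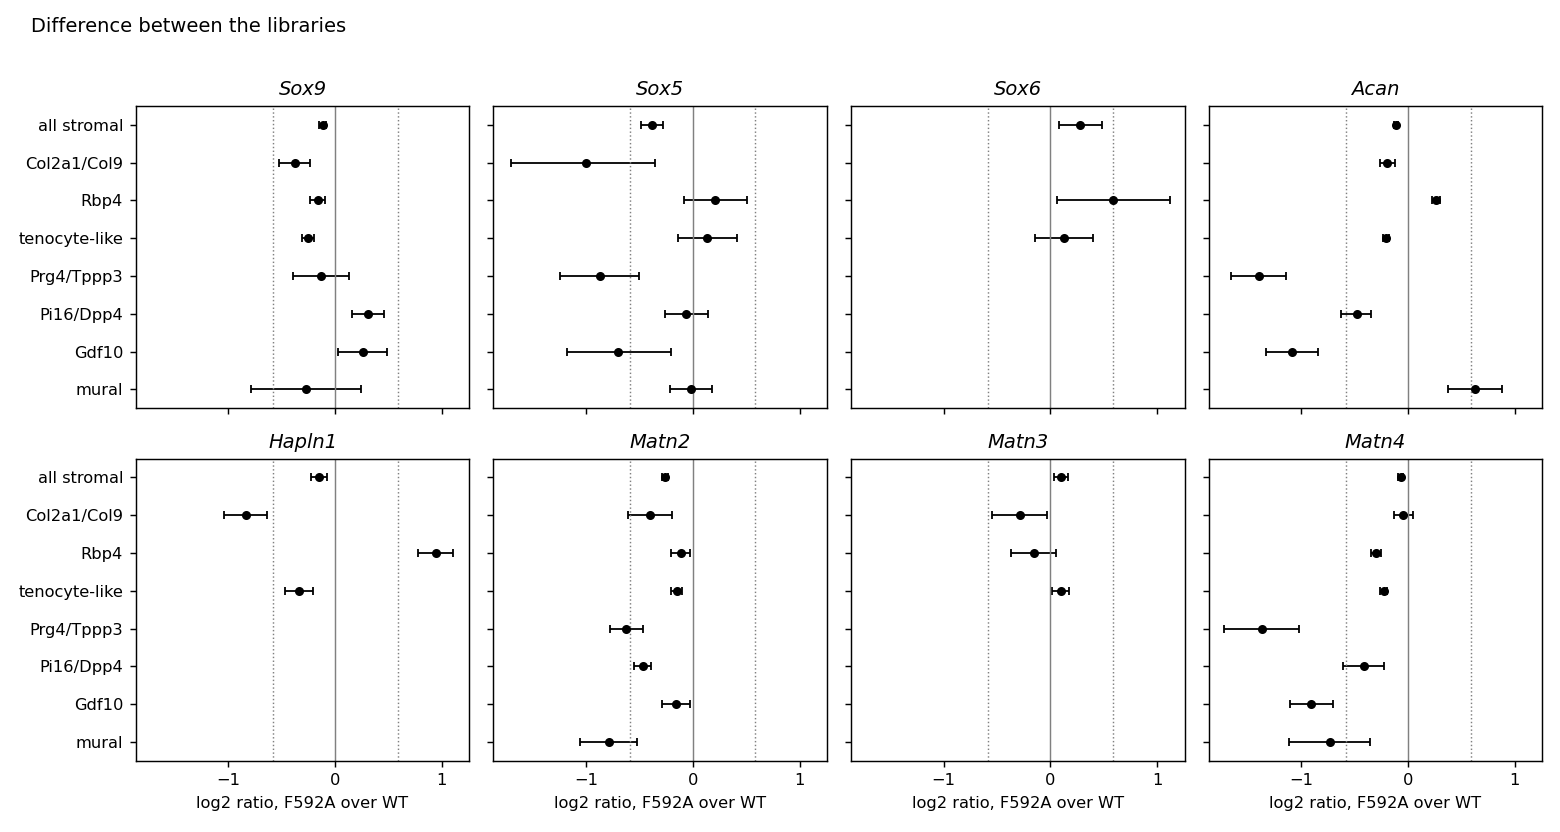
Log2 ratio of F592A over WT for 8 genes (panels) in all stromal cells, 6 stromal subsets and mural cells (rows), with exact 95% counting intervals; rows with under 100 UMIs are left out, the solid line marks 0 and dotted lines mark 1.5-fold. Hapln1 was at 0.94 in the Rbp4 cells and at -0.84 in the Col2a1/Col9 cells, and Acan at -1.40 in the Prg4/Tppp3 cells.

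Hapln1 differed in direction between subsets while its total over stromal cells was nearly level. In the Rbp4 cells it had 863 UMIs (69.2 CPM) in F592A and 473 UMIs (36.0 CPM) in WT, a log2 ratio of 0.94 (interval 0.78 to 1.11). The highest single cell held 77 of the F592A UMIs and 21 of the WT UMIs, and without the highest cell of each library the ratio was 0.88. The share of Rbp4 cells with a Hapln1 UMI was 33.2% (interval 28.3 to 38.4) and 26.6% (interval 22.6 to 31.0). After thinning, 35 and 36 UMIs remained and the ratio was 0.30. In the Col2a1/Col9 cells Hapln1 was lower, with 132 CPM in F592A and 236 CPM in WT (266 and 853 UMIs, log2 ratio -0.84, interval -1.04 to -0.64). The Col2a1/Col9 cells of the 2 libraries differed in other genes as well: Prg4, the lubricin gene of gliding surfaces, had 772 CPM in F592A and 118 CPM in WT, Col9a1 29.2 and 51.9 CPM, and 23 of 59 F592A and 29 of 117 WT cells lay near the limit of the subset. The part of this in the differences of Hapln1, Sox5 and Sox9 in these cells was not tested.

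Of the 8 genes measured in the Rbp4 cells, Hapln1 and Sox6 were at least 1.5-fold higher and none lower, where 3.11% of all genes were higher and 3.17% lower. Sox6 rested there on 77 and 54 UMIs (log2 ratio 0.59, interval 0.07 to 1.12), at the edge of 1.5-fold. It fell under 1.5-fold with mitotic cells left out (0.45) and with the highest cell of each library left out (0.50). The same held with shared barcodes left out (0.54), with 4 of 6 markers needed (0.54) and with every barcode kept (0.57). In the Col2a1/Col9 cells, Hapln1 and Sox5 were at least 1.5-fold lower among 7 measured genes and none was higher, where 3.66% of all genes were lower and 4.04% higher. Sox5 rested there on 25 F592A and 90 WT UMIs, with 12.4 and 24.9 CPM, and its direction turned after thinning, where 3 and 5 UMIs remained (0.25). Sox9 had a log2 ratio of -0.38 (interval -0.52 to -0.23) in these cells and -0.26 in tenocyte-like cells. In the tenocyte-like cells none of 8 genes was 1.5-fold apart, where 5.23% of all genes were.

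The Prg4/Tppp3 and Gdf10 subsets, where aggrecan was low, had still lower values of Acan and of most, not all, other measured genes in F592A. In the Prg4/Tppp3 cells, 4 of 5 measured genes were at least 1.5-fold lower and none higher, where 8.47% of all genes were lower and 2.99% higher. Acan had 66.9 CPM in F592A and 176 CPM in WT (143 and 874 UMIs, log2 ratio -1.40, interval -1.66 to -1.14). Matn4 had 37.9 and 97.9 CPM (log2 ratio -1.37), Sox5 36.5 and 66.6 CPM (log2 ratio -0.87), and Matn2 210 and 323 CPM (log2 ratio -0.62, at -0.24 after thinning). Hapln1 had 8 UMIs in F592A and 81 UMIs in WT. Of these cells, 49 of 76 and 104 of 195 lay near the limit of the subset, so its members are loosely defined.

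In the Gdf10 cells 3 of 5 measured genes were at least 1.5-fold lower and none higher, where 8.53% of all genes were lower and 3.61% higher. Acan had 28.5 CPM in F592A and 60.5 CPM in WT (log2 ratio -1.09), beside 22.9 and 33.0 CPM in macrophages. Matn4 had 45.8 and 86.0 CPM (log2 ratio -0.91, at -0.23 after thinning) and Sox5 8.84 and 14.4 CPM (log2 ratio -0.70). In the Pi16/Dpp4 cells none of 5 measured genes was 1.5-fold apart, where 13% of all genes were. Sox9 was on the higher side in both of these subsets, with 61.6 and 51.6 CPM in the Gdf10 cells (log2 ratio 0.26) and 55.7 and 45.0 CPM in the Pi16/Dpp4 cells (log2 ratio 0.31).

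Cycling stromal cells, those with at least 3 of 6 mitotic markers, numbered 140 in F592A (3.18%) and 403 in WT (6.73%). Sox9 had 144 CPM in F592A and 84.4 CPM in WT in these cells (log2 ratio 0.77, interval 0.64 to 0.90), and 122 and 139 CPM in the other stromal cells (log2 ratio -0.19). Acan had 627 and 459 CPM in cycling cells (log2 ratio 0.45) and 389 and 429 CPM in the others (log2 ratio -0.14). Sox6 had 6.95 and 2.60 CPM in cycling cells, from 39 and 37 UMIs, of which 1 F592A cell held 23.1%. The directions of Sox9 and Acan thus differed between cycling and other stromal cells. The share of all genes 1.5-fold apart in cycling cells was not taken, so these ratios stand without a background. Of the Pi16/Dpp4 cells, where Sox9 and Acan were low, 4.57% in F592A and 12.6% in WT were cycling, and the part of this in the difference was not tested.

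Outside stromal cells, Sox5 was highest in mural cells, which wrap blood vessels and contract. It had 57.7 CPM in F592A and 58.2 CPM in WT (457 and 401 UMIs, log2 ratio -0.01, interval -0.21 to 0.18). It was found in 47.8% and 43.1% of mural cells, beside 0.851% and 0.883% of macrophages. Per 1000 UMIs of Col1a1, an abundant stromal collagen gene, Sox5 had 26.9 and 20.3 UMIs in mural cells and 0.397 and 0.569 UMIs in stromal cells. Sox5 was present in smooth muscle-like cells (82.1 and 72.9 CPM) and in pericyte-like cells (52.4 and 57.1 CPM), whose intervals overlapped in WT and not in F592A.

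Nearly all Sox6 UMIs of mural cells lay in smooth muscle-like cells. Smooth muscle-like cells had 74 UMIs in F592A (42.2 CPM, interval 33.1 to 53.0) and 11 UMIs in WT (11.4 CPM, interval 5.72 to 20.5). Their log2 ratio was 1.88, with bounds of 0.96 and 2.94. These 85 UMIs, and the 90 of all mural cells, are fewer than the 100 set for a measured gene, and 31.6% of the genes measured in smooth muscle-like cells were 1.5-fold apart. Pericyte-like cells had 2 UMIs in each library. Among smooth muscle-like cells 45 of 128 in F592A (35.2%, interval 26.9 to 44.1) and 8 of 79 in WT (10.1%, interval 4.47 to 19.0) carried a UMI. In all mural cells the ratio was 2.36 (77 and 13 UMIs, interval 1.50 to 3.34), and it stayed between 2.07 and 2.65 under 8 other settings.

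The smooth muscle-like cells of the 2 libraries were not alike in other genes. Myh11, the smooth muscle myosin, had 2866 CPM in F592A and 1425 CPM in WT, the pericyte gene Higd1b 53.0 and 279 CPM, and Col1a1 1067 and 3849 CPM. Set against Myh11, Sox6 had 14.7 UMIs per 1000 in F592A and 8.04 in WT, a log2 ratio of 0.87 whose interval ran from -0.05 to 1.94. In all mural cells that ratio was 1.36 (interval 0.50 to 2.33). Smooth muscle-like cells were 1.51% of F592A cells and 0.702% of WT cells, and the part of this make-up in the Sox6 difference was not tested.

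**Figure D4:**
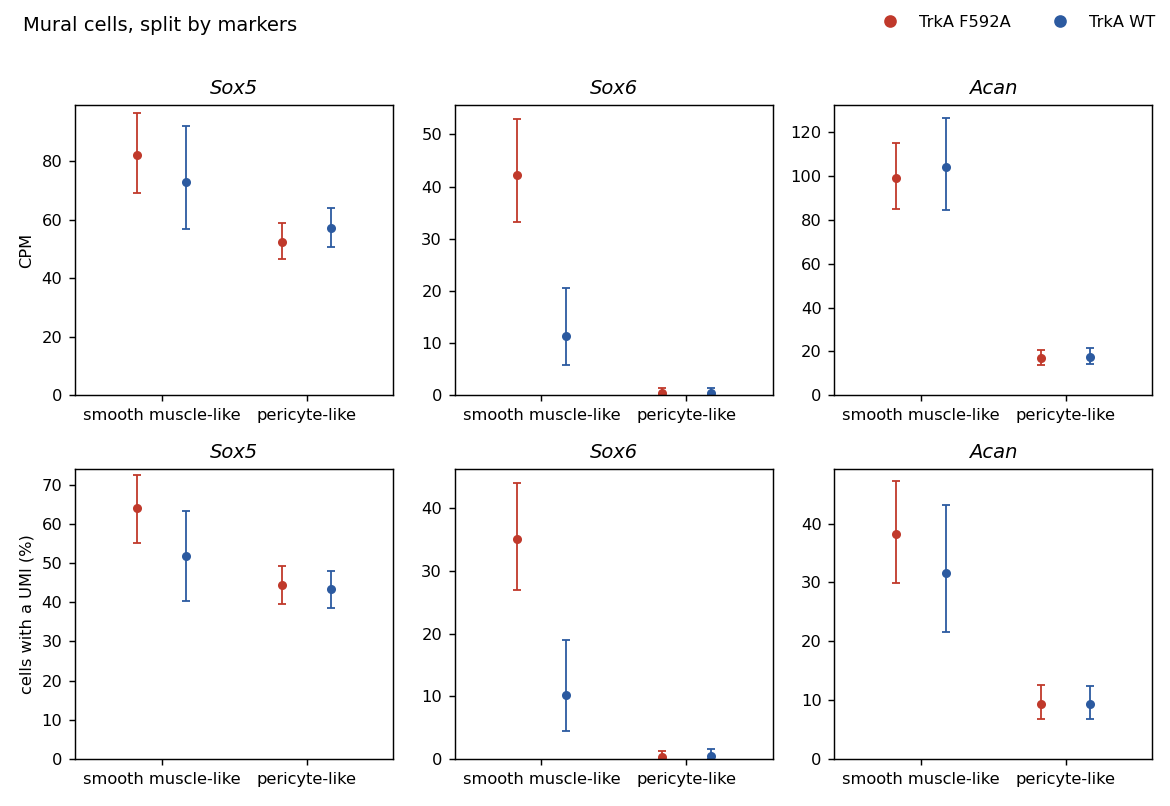
Sox5, Sox6 and Acan in smooth muscle-like and pericyte-like mural cells: CPM with exact Poisson intervals (upper row) and share of cells with a UMI with exact binomial intervals (lower row), F592A in red to the left of WT in blue. Sox6 stood at 42.2 CPM in F592A and 11.4 CPM in WT smooth muscle-like cells, and the Acan intervals of the 2 libraries overlapped in both subsets.

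Of 5 measured genes in mural cells, Acan was at least 1.5-fold higher in F592A, and Matn2 and Matn4 at least 1.5-fold lower, where 3.98% of all genes were higher and 9.3% lower. Acan had 45.8 CPM in F592A and 29.6 CPM in WT (log2 ratio 0.63, interval 0.38 to 0.88). Within smooth muscle-like cells it had 99.2 and 104 CPM (log2 ratio -0.07), and within pericyte-like cells 16.9 and 17.5 CPM (log2 ratio -0.05). The remaining mural cells, 55 in F592A and 76 in WT, met neither list, and their part in the mural Acan ratio was not tested. With predicted doublets kept, the ratio in all mural cells was -0.28. Matn2 had 24.2 and 41.8 CPM (log2 ratio -0.79, at -0.21 after thinning) and Matn4 12.7 and 21.2 CPM (log2 ratio -0.73), of which 1 WT cell held 34.2%.

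In macrophages 4 of 5 measured genes were at least 1.5-fold lower in F592A (Sox9, Hapln1, Matn2 and Matn4), where 5.44% of all genes were. These levels were under 20 CPM and the cells with a UMI few. Sox9 had 3.67 CPM in F592A and 7.93 CPM in WT, Matn2 5.31 and 10.9 CPM. A single F592A cell held 36.7% of the Matn4 UMIs and another or the same 34.2% of the Hapln1 UMIs. Col1a1 itself had 1165 CPM in F592A and 1646 CPM in WT macrophages. Per 1000 Col1a1 UMIs, Matn4 had 9.08 and 9.72 UMIs, Matn2 4.56 and 6.62, Sox9 3.15 and 4.82, and Hapln1 1.41 and 2.38. Acan had 19.6 and 20.1 UMIs in macrophages on this scale, beside 14.0 and 16.6 UMIs in stromal cells. The part of free RNA in the 4 lower values was not tested.

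Acan reached 286 CPM in F592A and 256 CPM in WT in the small neutrophil population, from 180 and 198 UMIs, the highest level outside stromal cells among the 6 types plotted above. These UMIs lay in 10 of 139 F592A cells and 31 of 220 WT cells, and a single cell held 76.1% of them in F592A and 36.4% in WT.

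Blood endothelial cells held scattered UMIs of the cartilage genes. Of 6 measured genes Sox9 was at least 1.5-fold higher and Hapln1, Matn2 and Matn4 lower, where 2.26% of all genes were higher and 9.05% lower. Single cells held much of several of these values: 1 cell had 46.2% of the F592A and 46.8% of the WT UMIs of Acan, 72.4% and 68.6% of those of Hapln1, and 86.1% of the F592A UMIs of Matn3. Sox9 had 147 UMIs in F592A and 53 UMIs in WT (14.9 and 7.03 CPM), found in 4.59% and 3.73% of the cells, and after thinning 5 UMIs remained in each library.

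Cytl1 was the one gene of the 10 with most of its UMIs in blood endothelial cells. It had 46 UMIs there in F592A (4.67 CPM, interval 3.42 to 6.22) and 18 UMIs in WT (2.39 CPM, interval 1.42 to 3.77), in 11 and 4 cells. A single WT cell held 61.1% of the WT UMIs, and the highest F592A cell 17.4%. Macrophages had 1 UMI of Cytl1 in F592A and none in WT. In endothelial cells with arterial markers it had 26 UMIs in F592A and 5 UMIs in WT, and in those with venular markers 20 and 2 UMIs. So few cells give a location for Cytl1 and no firm difference between the libraries. Snorc had 17 UMIs in F592A and 12 UMIs in WT over all cells, of which 6 in F592A lay in a single ungated cell, and 2 and 4 UMIs lay in the Col2a1/Col9 cells.

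Matn2 was abundant in the few Schwann-like cells, the glia of peripheral nerve. The 7 F592A cells held 43 UMIs (529 CPM, interval 383 to 713) and the 13 WT cells 98 UMIs (858 CPM, interval 697 to 1046). A UMI was found in 85.7% and 84.6% of these cells. Per 1000 Col1a1 UMIs they had 249 and 356 Matn2 UMIs, against 5.43 and 7.15 in stromal cells. Sox6 had 3 and 9 UMIs in the same cells, and the other 8 genes at most 1 UMI in either library.

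Matrix genes were detected together in stromal cells, measured after thinning. Of cells with an Acan UMI, 6.58% in F592A and 6.42% in WT also had a Hapln1 UMI, against 0.688% and 0.523% of cells without Acan. In the other direction, Acan was found in 80.7% and 87.3% of cells with Hapln1 and in 29.2% and 34.6% of those without. Matn3 was found in 8.22% and 7.02% of cells with Acan, against 2.03% and 2.22% without, and Matn4 in 39.8% and 40.3%, against 19.5% and 21.6%. Matn4 stood in 58.7% and 59.3% of cells with Matn3, against 24.3% and 27.0% of those without. Sox9 followed more loosely, in 21.4% and 25.8% of cells with Acan and 14.1% and 13.3% of those without.

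Matn2 and Sox5 showed no such link with Acan. Matn2 was found in 334 of 1338 F592A and 603 of 2151 WT cells with Acan (intervals 22.7 to 27.4% and 26.1 to 30.0%), and in 23.8% and 28.5% of cells without. Sox5 was found in 2.69% and 1.67% of cells with Acan, and in 2.59% and 3.84% of those without, so that in WT it was found less often beside Acan, with intervals that did not overlap (1.17 to 2.31 and 3.25 to 4.50). The cells in each comparison share a library and a depth, and cells are not replicates.

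**Figure D5:**
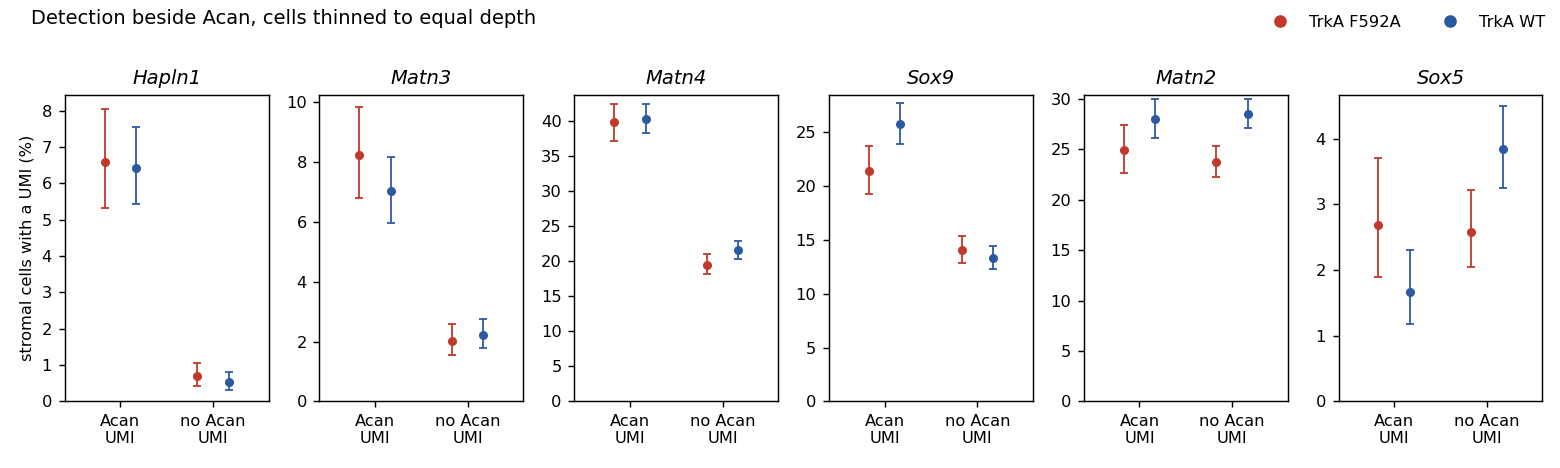
Share of stromal cells with a UMI of 6 genes, among cells with and without an Acan UMI after thinning to 2000 UMIs, F592A in red to the left of WT in blue, with exact binomial 95% intervals. Hapln1, Matn3, Matn4 and Sox9 were detected more often beside Acan in both libraries, and the intervals of Matn2 overlapped.

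The genes closest in pattern were named by the correlation of log2(CPM + 1) over 14 cell populations in both libraries (28 points), among 11777 genes. These points share libraries, and the subsets are parts of the stromal type, so the values describe likeness only. Sox9 was closest to Plod2 (r = 0.960), Fbn2 (0.960) and Col16a1 (0.960), genes of collagen cross-linking, microfibrils and a fibril-associated collagen. Acan was closest to Atp6v0a4 (0.969), Col11a1 (0.963), a cartilage collagen, and Gpc1 (0.950). Hapln1 was closest to Ucma (0.931), a cartilage matrix protein, and to Matn3 (0.916) and Acan (0.906). Matn3 was closest to Atp6v0a4 (0.937), Ucma (0.932) and Acan (0.931), and Matn4 to Col11a1 (0.961), Ecrg4 (0.951) and Aqp5 (0.951).

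The closest genes of Matn2, Sox5 and Sox6 were others. Matn2 was closest to Thbs3 (0.985), Col5a2 (0.978) and Ccdc80 (0.976), which encode matrix proteins of fibrous tissue. Sox5 was closest to Galnt16 (0.884), Cd248 (0.875), a marker of pericytes and fibroblasts, and Usp13 (0.874). Sox6 was closest to Hspb7 (0.869), a small heat shock protein of muscle, Klhl30 (0.809) and Chst3 (0.784). The correlation between Sox9 and Sox5 was 0.517 and that between Sox5 and Sox6 0.281, against 0.847 between Sox9 and Acan, 0.861 between Sox9 and Matn2 and 0.870 between Sox9 and Matn4.

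A further list of 40 cartilage genes was read in the same stromal cells. Of these, 33 were measured, 8 were at least 1.5-fold lower in F592A and none higher, where 4.71% of all genes measured in stromal cells were lower and 3.54% higher. The median log2 ratio of the 33 was 0.06, beside -0.08 for all genes. The 8 were Col9a1 (2.20 CPM in F592A and 3.31 CPM in WT, log2 ratio -0.59), Col9a2 (-0.98), Col9a3 (-0.89), Cnmd (-1.28), Scrg1 (-1.40), Mia (-0.62), Hapln3 (-0.92) and Nfatc2 (-1.01). The Col9 genes encode the collagen that coats cartilage fibrils, Cnmd encodes chondromodulin, and Nfatc2 is a transcription factor with 23.6 CPM in F592A and 47.5 CPM in WT. All but Nfatc2 stood below 5 CPM in both libraries. The 25 measured genes within 1.5-fold ran both ways. On the higher side were Cilp (570 CPM in F592A and 383 CPM in WT, log2 ratio 0.57), Chad (152 and 109 CPM, 0.48) and Col11a2 (74.2 and 53.6 CPM, 0.47). On the lower side were Vcan (415 and 519 CPM, -0.32) and Pthlh (12.6 and 18.3 CPM, -0.54). Col2a1, the main cartilage collagen gene, had 41.2 CPM in F592A and 38.1 CPM in WT (log2 ratio 0.11), and Comp, a matrix protein of tendon and cartilage, 1183 and 1267 CPM (log2 ratio -0.10). The cells of the Col2a1/Col9 subset, chosen by Col9a1, Col9a2, Col9a3 and Cnmd among others, were 0.698% of F592A cells and 1.04% of WT cells. In the stromal totals of these 4 genes, fewer such cells and less RNA per cell cannot be told apart. Within the subset, Col9a2 had 24.8 CPM in F592A and 48.9 CPM in WT, Col9a3 67.4 and 138 CPM, and Cnmd 11.4 and 40.3 CPM. Other markers of the subset did not share this: Col2a1 was higher there, with 637 CPM in F592A and 476 CPM in WT, and Col11a2 had 288 and 320 CPM. Nfatc2, not a marker of the subset, was lower in F592A in each named subset, with 26.1 and 62.9 CPM in tenocyte-like cells. The causes of these differences were not tested. Matn1 and Foxa2 had no UMI in stromal cells.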

How the data were processed

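The deposited files held UMI counts per feature and barcode. The authors made these counts with Cell Ranger, version 6.0.1 per the file headers and 2.1.1 per the submitters' processing notes, which also name Seurat and mm10. The sources used here do not settle the version. The counts as deposited were not normalized. Cells with at least 500 genes, 1000 UMIs and at most 15% mitochondrial UMIs were kept (8664 F592A and 11599 WT barcodes), and 215 and 345 doublets predicted with Scrublet in Scanpy 1.11.5 were left out. The kept cells held 170415034 and 205513506 UMIs.

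A cell joined the type with the most of its 6 markers detected, at least 3 and without a tie (194 cells tied). Stromal subsets were first scored by detected markers. This was replaced, after seeing the data, by the mean z-score of log values per 10000 UMIs (clipped at 3), needing 0.5 and the highest list, because free Tnmd filled 1 subset. Cells within 0.25 of another list or of the limit counted as near it. The splits of mural and endothelial cells and the mitotic cells also used 6 markers each, the splits being chosen after seeing the data.

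Counts were summed per population and library and scaled to CPM, with exact Poisson intervals, exact binomial (Clopper-Pearson) intervals of shares, and exact conditional binomial intervals of log2 ratios (scipy 1.17.1). Genes with 100 UMIs or more over the pair of libraries counted as measured, and comparisons used populations of at least 50 cells in each library. The calculation of log2 ratios was tested on simulated data. For thinned shares each cell was thinned to 2000 UMIs, leaving out 604 of 19703 cells. TMM factors came from edgeR 4.0.16, and median-of-ratios factors from DESeq2 1.42.0, as scalings only. Genes were named as all 10 members, the 3 genes of closest pattern to each (at least 500 UMIs, which left out Snorc and Cytl1) and a list of 40 cartilage genes. Promoters came from RefSeq on GRCm38.p6, the same assembly as mm10. The genes, lists and populations were chosen with earlier results of these data known.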

Additional observations from a re-analysis of the deposited data

Results flagged for a closer look

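Populations were taken where a gene stood above its macrophage level, with intervals apart, in at least 1 library. In addition, no cell held more than 25% of its UMIs in either library. These limits were chosen after seeing the data. Within them, the ratio of F592A over WT for Acan and Hapln1 ran at least 1.5-fold one way in some populations. In others it ran at least 1.5-fold the other way. These differences between populations were not tested. Acan had a log2 ratio of 0.63 in mural cells, against -1.40 in the Prg4/Tppp3 stromal cells and -1.09 in the Gdf10 stromal cells. The mural value was -0.07 within smooth muscle-like cells and -0.05 within pericyte-like cells, of which F592A had 128 and 418 cells and WT 79 and 439 cells. It also took in mural cells that met neither list, 55 in F592A and 76 in WT. The part of these cells, and of the mix of the splits, in the mural value was not tested. Hapln1 had a log2 ratio of 0.94 in the Rbp4 stromal cells, against -0.84 in the Col2a1/Col9 cells and -2.13 in the Prg4/Tppp3 cells, where 8 F592A and 81 WT UMIs were counted. Outside these limits, Sox9 had a log2 ratio of 1.08 in blood endothelial cells (147 F592A and 53 WT UMIs, of which 1 WT cell held 28.3%) and -1.11 in macrophages (85 and 227 UMIs, of which 1 F592A cell held 25.9%). Matn3 had a log2 ratio of 0.98 in the Pi16/Dpp4 cells, from 22 UMIs in each library, and -2.28 in the Prg4/Tppp3 cells, from 4 and 45 UMIs.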

How the results depend on the processing

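In stromal cells, none of the genes was 1.5-fold higher or lower under any of 12 alternative settings except the one with no minimum of UMIs, where Cytl1 counted as higher (1 higher, 0 lower), from 11 and 4 UMIs, and 30.3% of all genes were 1.5-fold apart. The median log2 ratio of the genes stayed between -0.22 (each cell thinned to 2000 UMIs) and -0.04 (TMM or median-of-ratios factors). Sox6 had under 100 UMIs after thinning. The sign of Matn3 turned with thinning (-0.04) and with the subsets weighted equally (-0.18), and that of Matn4 with TMM factors (0.01) and median-of-ratios factors (0.01). In other populations, Acan in mural cells turned to -0.28 with predicted doublets kept and to -0.29 with every barcode kept. Thinning turned Sox9 in blood endothelial cells to -0.21, Sox5 in the Col2a1/Col9 cells to 0.25 and Matn3 in tenocyte-like cells to -0.08. The cause of these changes was not tested. Sox6 in mural cells stayed between 2.07 and 2.65. In the Rbp4 cells Sox6 ranged from 0.45 to 1.34, on both sides of 1.5-fold. Sox5 in stromal cells ranged from -0.49 to -0.22. No paired analysis was possible because each genotype has 1 library, and leaving out a replicate was not possible for the same reason. Depth limits Snorc, Cytl1 and Sox6 most. The splits of mural and endothelial cells, the shared barcodes, the highest cell and the scaling to Myh11 were alternatives chosen after seeing the data.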
